A study of Homo sapiens with 9 samples.

Results

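The genes described here are CD74, HLA-DRA, HLA-DRB1, HLA-DPA1, HLA-DPB1, HLA-DMA, HLA-DMB, CIITA and CTSS, which build, load or switch on major histocompatibility complex (MHC) class II. They were taken by name from the deposited table, and all 9 were found among its 58037 genes. Total RNA was sequenced from 3 established human breast cancer lines grown in DMEM with 10% serum. The title of the series calls the cancer triple-negative and names EZH2, the histone H3 lysine 27 methyltransferase of Polycomb repressive complex 2, as the target. The lines MDA-MB-231, MDA-MB-436 and also MDA-MB-453 were each sequenced as an untreated control, with GSK343 (a small-molecule EZH2 inhibitor) and with shEZH2 (a short hairpin RNA against the EZH2 transcript). This gave 3 libraries per condition and 1 library per line and condition. Dose, duration and hairpin sequence are not given in the labels, and the column headers call the controls shControl while the sample labels give them no treatment.

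MHC class II molecules show peptides from endosomes to CD4+ T cells. An alpha and a beta chain (HLA-DRA with HLA-DRB1, HLA-DPA1 with HLA-DPB1) assemble on the invariant chain CD74, which blocks the groove and steers the complex to endosomes. Cathepsin S (CTSS) trims CD74 there, and HLA-DMA and HLA-DMB form the HLA-DM dimer that swaps the last CD74 fragment for a peptide. CIITA, a co-activator that does not bind DNA itself, is drawn to the class II promoters by factors bound to short elements called the X and Y boxes. Professional antigen-presenting cells make class II constantly, and other cells, carcinoma cells included, make it when interferon gamma switches CIITA on.

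Of the 9 genes, 6 lie on chromosome 6 in the MHC region, from HLA-DRA (chr6:32439842-32445046, plus strand) to HLA-DPB1 (chr6:33075926-33087201, plus strand). HLA-DRB1 is at chr6:32578769-32589848, HLA-DMB at chr6:32934629-32941070, HLA-DMA at chr6:32948613-32969094 and HLA-DPA1 at chr6:33064569-33080775, all on the minus strand. CD74 is at chr5:150401637-150412929 and CTSS at chr1:150730196-150765957 on the minus strand, and CIITA is at chr16:10866222-10943021 on the plus strand (GRCh38, GENCODE release 29). Exons of HLA-DPA1 and HLA-DPB1 overlap on opposite strands, as do exons of HLA-DMA and BRD2 and of CIITA and DEXI. On the same strand, exons of AL645941.2 overlap those of HLA-DMA and of HLA-DMB, and exons of AC133065.3 overlap those of CIITA. The strand setting of the counting and the handling of reads shared by genes are not given. How reads in all these overlaps were assigned is thus uncertain. HLA-DRB1 shares long stretches with HLA-DRB5, so the values of both are uncertain as well.

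Promoter windows from RefSeq (GRCh38.p14, 250 bases before to 50 after the gene start) were at hand for 6 of the 9 genes. Stretches of 5 of them are shown, each with a match to letters used here for a class II promoter element. RefSeq gene starts can differ from the GENCODE coordinates above. The HLA-DMA stretch lies inside its GENCODE gene, and the HLA-DMB and HLA-DPB1 stretches cross the GENCODE starts of those genes. Capitals mark the letters ACNGATG, used here for the X box, and CCAAT or its reverse ATTGG, used for the Y box.
HLA-DRB1: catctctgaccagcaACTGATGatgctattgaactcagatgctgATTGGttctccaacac
HLA-DMA: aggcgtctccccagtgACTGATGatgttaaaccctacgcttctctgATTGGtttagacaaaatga
HLA-DMB: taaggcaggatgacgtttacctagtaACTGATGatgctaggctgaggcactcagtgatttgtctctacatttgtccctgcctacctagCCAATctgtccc
CD74: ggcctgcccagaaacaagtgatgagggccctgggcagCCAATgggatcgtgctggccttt
HLA-DPB1: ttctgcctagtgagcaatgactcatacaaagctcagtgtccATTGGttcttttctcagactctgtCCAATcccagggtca
Read 5′ to 3′ along the gene, these are chr6:32589879-32589938, chr6:32953158-32953222, chr6:32941039-32941138 and chr5:150412941-150413000 on the minus strand and chr6:33075850-33075929 on the plus strand. HLA-DRB1, HLA-DMA and HLA-DMB carry the same ACTGATG on the gene's strand. On either strand the X letters were found in 7.65% of all 35116 windows and the Y letters in 34.6%. The X letters followed by ATTGG with 25 to 35 bases from the first letter of X to the first letter of ATTGG, a spacing chosen with these windows in view, were found in 28 windows (0.0797%), among them HLA-DRB1, HLA-DMA, HLA-DRB5 and HLA-DQB1. The printed letters of CD74 and HLA-DPB1 hold no match to the X letters, which says only that these letters are not in those stretches. The CD74 window holds an X match on the opposite strand at position -209 from the gene start, outside the printed stretch. None was found in the HLA-DPB1 window.

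Values are RPKM, reads scaled to exon length and library size. The length covers all annotated exons of a gene, used in these cells or not, so levels set side by side between genes depend on it. The libraries held 14757043 to 18283426 reads, recovered from the deposited values. EZH2 checks the labels. In the order MDA-MB-231, MDA-MB-436, MDA-MB-453 its RPKM was 27.4, 38.9 and 42.3 without treatment, 5.77, 7.53 and 7.99 with the GSK343 label, and 16.4, 37.4 and 16.2 with the shEZH2 label. The transcript was thus lowest in the libraries labelled with the inhibitor, although a hairpin targets the mRNA and GSK343 the enzyme. In MDA-MB-436 the shEZH2-labelled library (37.4) lay close to its control (38.9). Whether the labels of the interventions were exchanged was not tested. The groups are called libraries labelled GSK343 or shEZH2 throughout. The libraries labelled MDA-MB-453 did not carry that line's known luminal pattern, and 0 of its 6 markers were highest there in any condition. FOXA1 was at 1.01 to 2.37 RPKM there and SPDEF at 5.90 to 20.1. In each condition both values lay between those of the other lines. Results are therefore also given without these libraries.

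CD74 was abundant in MDA-MB-231 and nearly absent from MDA-MB-436. In MDA-MB-231 its RPKM was 231.6 in the control, 245.8 with the GSK343 label and 397.4 with the shEZH2 label. In MDA-MB-436 it was 0.430, 0.341 and 0.300, from 23, 18 and 17 reads. In the libraries labelled MDA-MB-453 it was 71.4, 164.7 and 172.8. The 3 lines did not overlap at any condition, and CD74 ranked 100th among all genes in the MDA-MB-231 control, against rank 13906 in the MDA-MB-436 control.

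The DR pair was the most abundant of the chains in MDA-MB-231 and in the libraries labelled MDA-MB-453, while in MDA-MB-436 HLA-DMA was. HLA-DRA, the DR alpha chain, had 12.9, 19.8 and 38.1 RPKM in MDA-MB-231 (control, GSK343 and shEZH2 labels) and 9.16, 13.9 and 14.3 in the libraries labelled MDA-MB-453. HLA-DRB1, its beta chain, had 10.8, 14.8 and 31.04 RPKM in MDA-MB-231 and 3.86, 9.90 and 11.9 in the libraries labelled MDA-MB-453. Each of these genes had 1 read in the MDA-MB-436 control and 0 reads elsewhere in that line. A count of 0 allows up to 0.141 RPKM of HLA-DRA and 0.139 RPKM of HLA-DRB1 in the GSK343-labelled library, and 0.132 and 0.129 in the shEZH2-labelled one (3 reads, counting error only). Whether the alignment reference held alternate HLA haplotypes, which can take reads from these genes, is not given, so the bounds hold for counted reads only. In every library of MDA-MB-231 and of the MDA-MB-453 label the alpha chain was 1.2 to 2.38 times the beta chain.

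The DP pair was lower in RPKM by about an order of magnitude and ran in the same order of libraries within MDA-MB-231. This gap leans on exon length. In the MDA-MB-231 control HLA-DPA1 had 132 reads over 5748 bases, and HLA-DRA 276 reads over 1280 bases. HLA-DPA1 had 1.37, 2.22 and 4.51 RPKM in MDA-MB-231 and 0.572, 1.69 and 1.96 in the libraries labelled MDA-MB-453, with a single read in all of MDA-MB-436. HLA-DPB1 had 1.65, 2.36 and 5.49 RPKM in MDA-MB-231 and 0.823, 1.92 and 1.92 in the libraries labelled MDA-MB-453, with 0 reads in MDA-MB-436 (up to 0.0604 to 0.0649 RPKM per library). Alpha and beta chain stood at similar levels, with a ratio of 0.696 to 1.02.

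The HLA-DM chains were uneven. HLA-DMA had 2.28, 4.36 and 5.31 RPKM in MDA-MB-231, 0.882, 2.32 and 2.52 in the libraries labelled MDA-MB-453, and 0.282, 0.619 and 0.244 in MDA-MB-436, where it rested on 12, 26 and 11 reads. HLA-DMB was the lowest of the 9 genes in MDA-MB-231, with 0.244, 0.466 and 0.717 RPKM there, 0.120, 0.322 and 0.336 in the libraries labelled MDA-MB-453 and 0.0128, 0.0259 and 0.0121 in MDA-MB-436. HLA-DMA exceeded HLA-DMB by 7.19 to 9.38 times in the libraries with class II transcripts. Exons of both overlap those of AL645941.2 on the same strand, and their exon lengths differ (2534 and 4655 bases). The part of counting and of length in this ratio was not tested.

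CIITA, the switch of the set, followed the genes it controls in its order over the lines. It had 1.66, 2.32 and 3.64 RPKM in MDA-MB-231, 0.728, 1.85 and 1.80 in the libraries labelled MDA-MB-453, and 0.0452, 0.0458 and 0.0658 in MDA-MB-436. The MDA-MB-436 values rest on 11, 11 and 17 reads. Exons of CIITA overlap those of DEXI and the strand setting is not given, so whether CIITA itself was detected there is uncertain.

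CTSS, the protease, did not share this pattern. In the order MDA-MB-231, MDA-MB-436, MDA-MB-453 it had 3.78, 5.07 and 5.62 RPKM without treatment, 17.2, 15.5 and 13.1 with the GSK343 label, and 12.3, 17.4 and 15.1 with the shEZH2 label. All 3 controls lay below all 6 other libraries, as in 4.57% of all tested genes, while the lines overlapped.

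**Figure D1:**
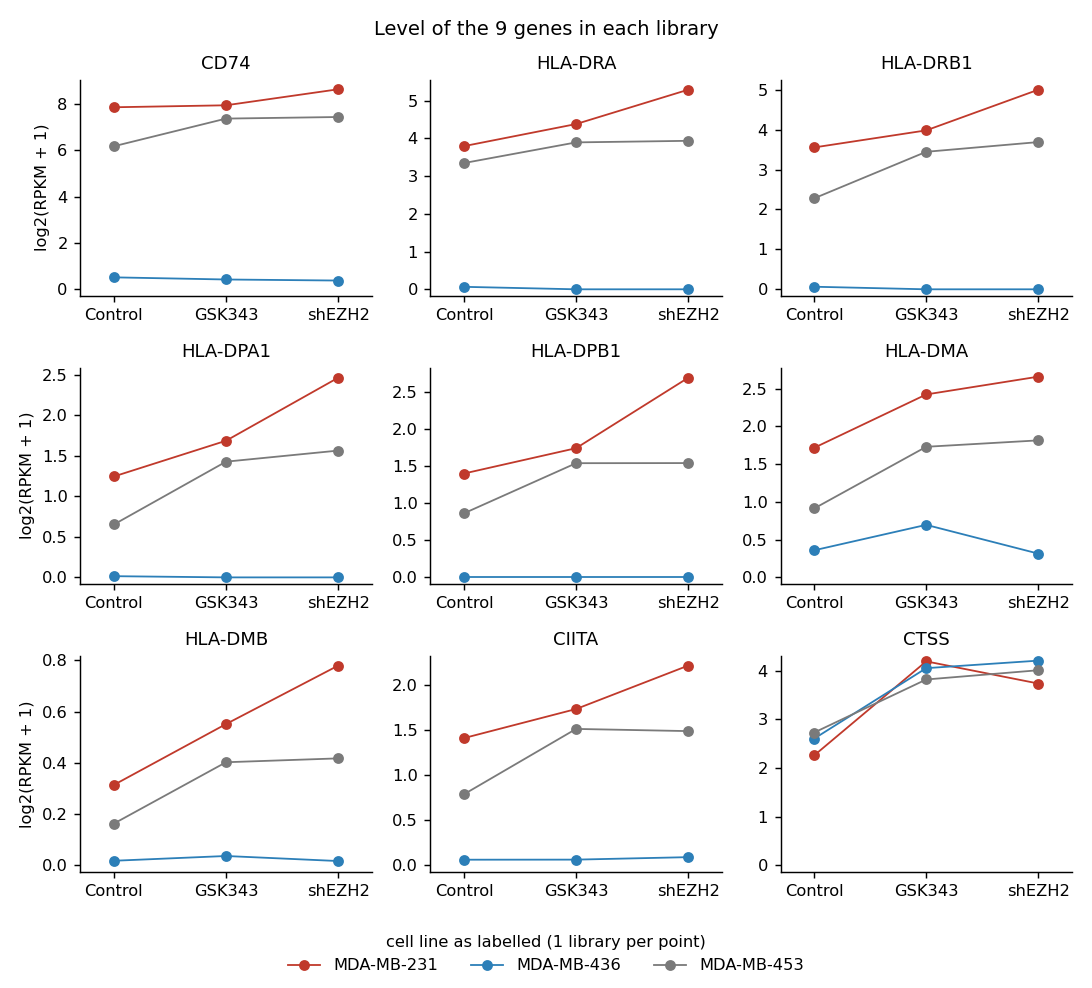
Level of each of the 9 genes as log2(RPKM + 1) (y axis) in the control, GSK343-labelled and shEZH2-labelled library (x axis) of each line, with 1 library per point and a separate y scale per gene. CTSS is low in the 3 controls whatever the line. In each condition the other 8 genes are lowest in MDA-MB-436 and highest in MDA-MB-231. All of these but HLA-DMA (up to 0.619 RPKM) are near 0 in MDA-MB-436.

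To ask how far the lines differed, log2(RPKM + 1) was fitted with limma with line and condition as terms, and p-values were adjusted over the 12965 genes that reached 1 RPKM in at least 3 libraries. HLA-DMB did not pass that filter, with 0.717 RPKM at most, so 8 of the 9 genes were tested. The p-values measure how far differences vary over lines or conditions, since no line has a second library of a condition. The class II genes that passed did so through MDA-MB-231 and the libraries labelled MDA-MB-453, so their counts between lines are a description. In MDA-MB-436, 7 of the 8 were lower than in MDA-MB-231, where 28.6% of all genes were called lower. CD74 differed most (log2 difference -7.71 ± 0.53, half-width of the 95% interval, adjusted p = 3.31e-10, limma), followed by HLA-DRA (-4.46 ± 0.51) and HLA-DRB1 (-4.16 ± 0.58). HLA-DPB1 (-1.95 ± 0.48), HLA-DMA (-1.81 ± 0.41), HLA-DPA1 (-1.79 ± 0.47) and CIITA (-1.71 ± 0.39) had smaller differences on this scale, which compresses low levels. CTSS did not pass (0.22 ± 0.37, adjusted p = 0.263).

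On the reads themselves, summed over the 3 conditions, CD74 was 833 times higher in MDA-MB-231 than in MDA-MB-436 (95% counting interval 644 to 1100). CIITA was 49.1 times higher (35.8 to 69.3), HLA-DMB 28.8 times (10.9 to 107, with 112 reads against 4) and HLA-DMA 10.6 times (7.90 to 14.5). HLA-DPB1 was at least 155-fold higher, with 454 reads against 0 and a floor of 3 reads over the group. HLA-DRA had 1541 reads against 1, HLA-DRB1 1260 against 1 and HLA-DPA1 794 against 1. All 8 genes other than CTSS had every MDA-MB-436 library below every MDA-MB-231 library, as had 29.5% of the tested genes. CTSS ran slightly the other way in reads, with a ratio of 0.854 (0.807 to 0.903).

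The libraries labelled MDA-MB-453 stood between the other lines. Of the 8 tested genes, 6 were lower than in MDA-MB-231, against 11.2% of all genes called lower. They were CD74 (-1.15 ± 0.53, adjusted p = 0.00484, limma), HLA-DRB1 (-1.04 ± 0.58), HLA-DMA (-0.78 ± 0.41), HLA-DRA (-0.76 ± 0.51), HLA-DPB1 (-0.63 ± 0.48) and CIITA (-0.52 ± 0.39). HLA-DPA1 did not pass (-0.58 ± 0.47, adjusted p = 0.0561), nor did CTSS (0.12 ± 0.37, adjusted p = 0.605). This count fell to 1 without the control labelled MDA-MB-453 or without the shEZH2-labelled MDA-MB-231 library, and to 3 without the GSK343-labelled MDA-MB-231 or the shEZH2-labelled MDA-MB-453 library. Against MDA-MB-436, 7 of the 8 were higher, with CD74 at 6.56 ± 0.53 and CIITA at 1.19 ± 0.39, where 18.6% of all genes were called higher. CTSS again did not pass (-0.10 ± 0.37, adjusted p = 0.672).

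The level in the MDA-MB-453-labelled library was also expressed as a percentage of the MDA-MB-231 library of the same condition, a measure chosen after the values were seen. Over the 8 genes other than CTSS it ran from 30.8% (CD74) to 71.2% (HLA-DRA) in the controls, with a median of 42.8%. Under the GSK343 label it ran from 53.1% (HLA-DMA) to 81.3% (HLA-DPB1), median 69.6%, and under the shEZH2 label from 35% (HLA-DPB1) to 49.6% (CIITA), median 43.4%. Other genes with at least 5 RPKM in MDA-MB-231 and under 0.5 in MDA-MB-436 had medians of 47.3% (142 genes), 51.2% (136 genes) and 47.9% (149 genes) by the same measure. In the MDA-MB-231 control CD74, HLA-DRA and HLA-DRB1 alone of the 8 reached that level, so most of the class II genes were lower than the genes they are set beside. The medians of the class II genes lay below those of the other genes in the control and shEZH2-labelled libraries and above in the GSK343-labelled ones. No test was made of this difference.

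**Figure D2:**
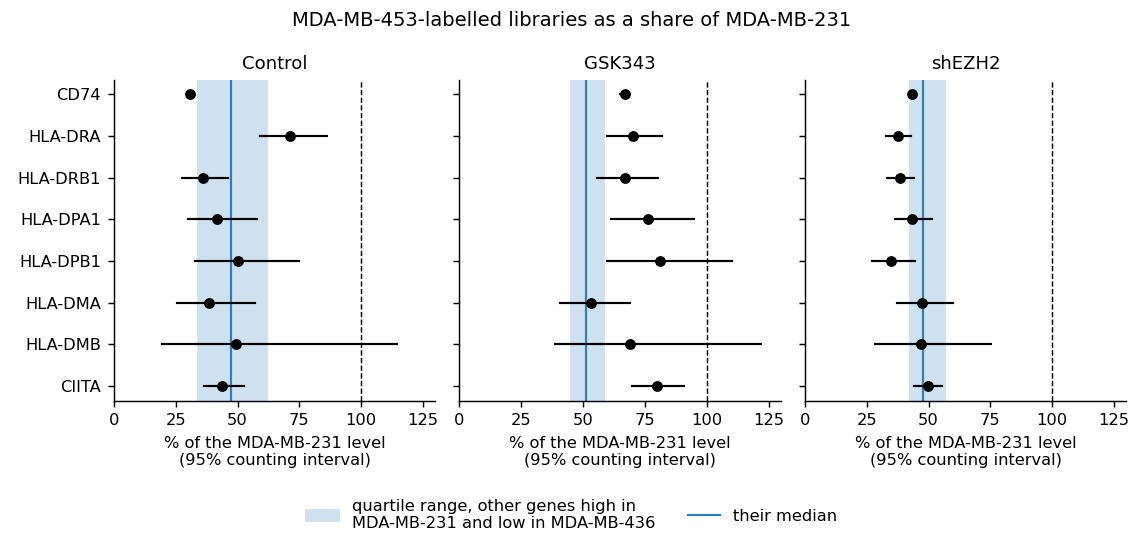
Level of 8 genes in the MDA-MB-453-labelled library as a percentage of the MDA-MB-231 library of the same condition (x axis), with 95% counting intervals and 1 panel per condition. The band and line give the quartiles and median of other genes high in MDA-MB-231 and low in MDA-MB-436. Points centre near 43% in the control and shEZH2 panels and near 70% in the GSK343 panel.

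The first comparison of conditions set the libraries labelled GSK343 against the controls. CTSS rose in all 3 lines, by 1.49 ± 0.37 on the log2 scale (2.81-fold in RPKM + 1, adjusted p = 0.00102, limma). It was the single gene called of the 8 tested, where 6.25% of all genes were called higher. The other 7 had positive estimates that did not pass, from 0.34 ± 0.48 for HLA-DPB1 to 0.62 ± 0.41 for HLA-DMA (adjusted p = 0.0643), and the median of the 8 was 0.40 against 0.06 over all genes. Without the MDA-MB-453-labelled libraries CTSS was still called (1.69 ± 0.43, adjusted p = 0.0315), and CD74 stood at -0.00 ± 0.53. The count was 3 without the control of MDA-MB-436 and 2 without its shEZH2-labelled library.

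Against the same controls, CTSS rose by 1.45 ± 0.37 in the libraries labelled shEZH2 (2.74-fold in RPKM + 1, adjusted p = 0.00106, limma). HLA-DRB1 rose too, by 0.93 ± 0.58 (1.91-fold, adjusted p = 0.0444), so 2 of 8 were called, where 8.35% of all genes were called higher. The other estimates were 0.70 ± 0.47 for HLA-DPA1, 0.67 ± 0.51 for HLA-DRA, 0.66 ± 0.48 for HLA-DPB1, 0.63 ± 0.53 for CD74, 0.60 ± 0.41 for HLA-DMA and 0.51 ± 0.39 for CIITA, with adjusted p between 0.0555 and 0.114. All 8 had an unadjusted p under 0.05, as had 3705 of all 12965 genes, beside 2 of the 8 under the GSK343 label. Their median was 0.67 against 0.05 over all genes. HLA-DRB1 did not pass without the libraries labelled MDA-MB-453 (0.69 ± 0.77, adjusted p = 0.305), and CTSS did (1.54 ± 0.43, adjusted p = 0.047). The count moved with single libraries. For MDA-MB-436 it was 8 without the control and 7 without the shEZH2-labelled library. It was 1, CTSS, without the control of either other line, without the shEZH2-labelled library of either, or without the GSK343-labelled MDA-MB-231 library.

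With both interventions averaged, CTSS rose by 1.47 ± 0.32 (adjusted p = 0.000257, limma) and HLA-DMA by 0.61 ± 0.36 (1.53-fold, adjusted p = 0.0269), so 2 of 8 were called, where 12.2% of all genes were called higher. HLA-DRB1 (0.72 ± 0.50, adjusted p = 0.0512) and HLA-DPA1 (0.55 ± 0.40, adjusted p = 0.0615) lay just outside the threshold. HLA-DMA did not pass without the MDA-MB-453-labelled libraries (0.49 ± 0.51, adjusted p = 0.256). For MDA-MB-436, leaving out its control brought the count to 8 and leaving out its shEZH2-labelled library brought it to 7. Leaving out the control of MDA-MB-231, its shEZH2-labelled library, or any library labelled MDA-MB-453 brought it to 1. HLA-DMB, fitted without the filter on low values, had 0.20 ± 0.21 (adjusted p = 0.316).

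**Figure D3:**
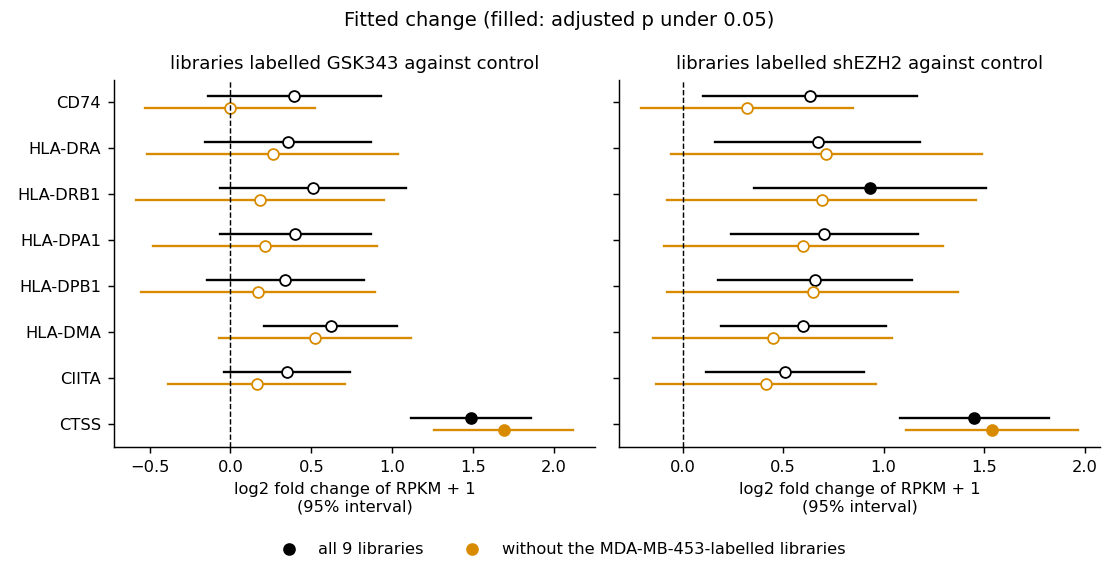
Fitted log2 fold change of RPKM + 1 against control (x axis, with 95% intervals) for the 8 tested genes, in the libraries labelled GSK343 and shEZH2, over all 9 libraries and without the libraries labelled MDA-MB-453. Filled points have an adjusted p under 0.05. CTSS is filled in both fits and both panels, and HLA-DRB1 in the shEZH2 panel with all libraries.

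Within single lines there is 1 library per condition and no replicate check, so ratios of reads scaled to library size carry intervals for counting error only. In MDA-MB-231 the 8 genes other than CTSS were 1.06 (CD74, 1.03 to 1.09) to 1.91 times (HLA-DMA, 1.48 to 2.48) their control under the GSK343 label, with a median of 1.48. Under the shEZH2 label they were 1.72 (CD74, 1.68 to 1.75) to 3.33 times (HLA-DPB1, 2.58 to 4.35), median 2.92. All 8 intervals lay above 1 in both, as did those of 26.5% and 28.3% of all genes with recovered reads. HLA-DRA, for example, had 276 reads in the control, 374 with the GSK343 label and 891 with the shEZH2 label. CIITA was 1.40 (1.23 to 1.60) and 2.19 times (1.95 to 2.47) its control.

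In the MDA-MB-453-labelled libraries the medians of the labels were closer to each other. Under the GSK343 label the 8 genes were 1.51 (HLA-DRA) to 2.95 times (HLA-DPA1) their control, median 2.56. Under the shEZH2 label they were 1.56 (HLA-DRA) to 3.42 times (HLA-DPA1), median 2.64. All 8 intervals again lay above 1 in both, against 31.1% and 32.1% of all genes.

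In MDA-MB-436 only CD74, HLA-DMA and CIITA had enough reads (more than 3 per library) for a ratio. CD74 was 0.793 (0.403 to 1.54) and 0.697 times (0.350 to 1.36) its control, CIITA 1.01 (0.398 to 2.58) and 1.46 times (0.644 to 3.44). HLA-DMA was 2.20 times (1.07 to 4.78) its control under the GSK343 label and 0.864 times (0.346 to 2.14) under the shEZH2 label. The HLA-DMA interval under the GSK343 label excluded 1, on 26 reads against 12 in the control. Exons of HLA-DMA overlap those of BRD2, and the share of all genes with such an interval was not computed for this line. Changes in the DR and DP chain genes were not detectable in this line at this depth. CTSS, by contrast, was 3.07 (2.72 to 3.46) and 3.43 times (3.05 to 3.87) its control there, beside 4.56 (3.98 to 5.23) and 3.25 times (2.84 to 3.74) in MDA-MB-231 and 2.33 (2.06 to 2.63) and 2.68 times (2.38 to 3.02) in the libraries labelled MDA-MB-453.

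**Figure D4:**
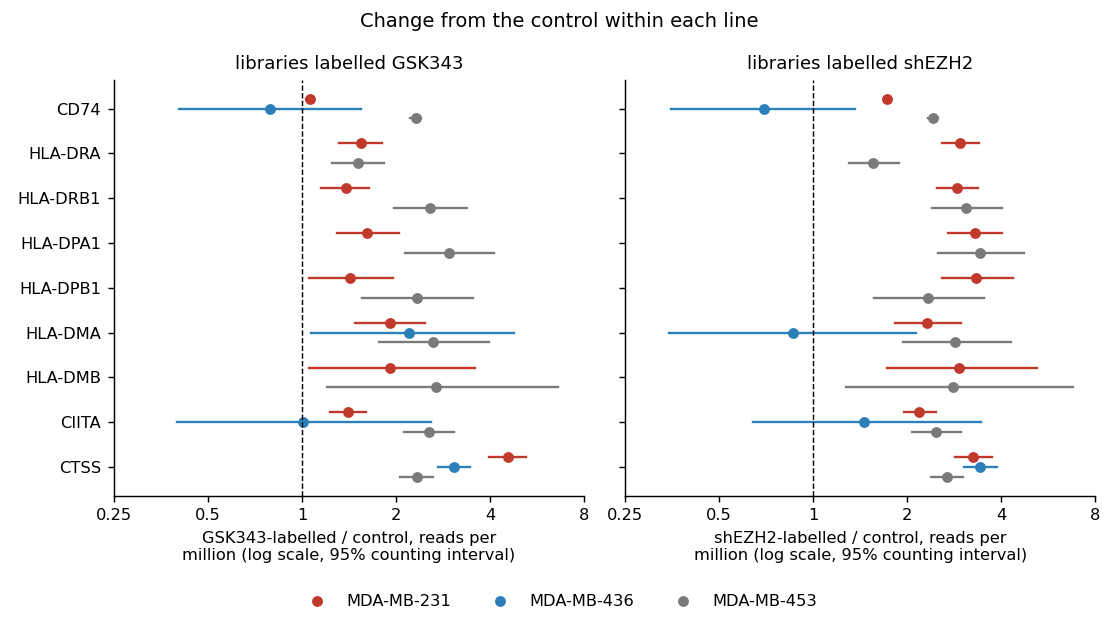
Ratio of reads, scaled to library size, to the control of the same line (x axis, log scale, 95% counting intervals) for the 9 genes, with 1 library per condition and line. CTSS lies above 2 in every line, the other genes lie above 1 in MDA-MB-231 and the libraries labelled MDA-MB-453, and those MDA-MB-436 ratios that could be formed for them spread around 1 with wide intervals.

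Whether the response differed between lines was tested by an F-test in limma over all genes. In it the GSK343- and shEZH2-labelled libraries of a line served as its repeats (3 residual degrees of freedom). Differences between these labels within a line thus formed the error. None of the 8 genes passed, where 0.0231% of all genes (3 genes) did. CD74 came nearest (unadjusted p = 0.0227, adjusted p = 0.129), and at unadjusted p under 0.05 there was 1 of the 8 and 3710 of all genes. Without the GSK343-labelled MDA-MB-231 library 6 of the 8 passed together with 3966 of all genes, and without its shEZH2-labelled library 3 passed together with 4049. With either library left out, MDA-MB-231 adds nothing to the error of the test. A missing call here does not show that the lines responded alike.

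The interventions were compared with each other directly. None of the 8 genes passed, as 0% of all genes did (0 by limma, 295 at unadjusted p under 0.05, with 0 of the 8 among them). The differences, GSK343 minus shEZH2 label, ran from -0.42 ± 0.58 for HLA-DRB1 to 0.04 ± 0.37 for CTSS, so intervals of up to about 1 log2 unit for the chain genes do not show that the interventions acted alike. In the reads of MDA-MB-231, the shEZH2-labelled library exceeded the GSK343-labelled one by 1.22 (HLA-DMA) to 2.33 times (HLA-DPB1), and 6 of 8 intervals lay above 1, against 21.2% of all genes. In the libraries labelled MDA-MB-453 the same ratio was 0.974 (CIITA) to 1.2 (HLA-DRB1), and 1 of 8 intervals, that of CD74, lay above 1, against 13.5% of all genes. For CTSS the ratio was 0.714 (0.654 to 0.780) in MDA-MB-231, 1.12 (1.03 to 1.22) in MDA-MB-436 and 1.15 (1.05 to 1.26) in the libraries labelled MDA-MB-453.

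Over the 9 libraries the 7 tested genes other than CTSS rose and fell together, with Pearson r of log2(RPKM + 1) between 0.90 (HLA-DMA with CD74) and 0.996 (HLA-DPB1 with HLA-DPA1). These points share their lines, and the low MDA-MB-436 values weigh on every r. After subtracting line means r was 0.79 (HLA-DRA with CD74) to 0.99. CTSS had r between -0.06 (CD74) and 0.21 (HLA-DMA) with the others, and 0.47 to 0.77 after subtracting line means. Over all 9 libraries the genes most like the mean of the 7 were SERPINA1 and HLA-DRB5 (both r = 0.998), and after subtracting line means they included FPR1 (0.996) and DNHD1. The 5 genes most like CTSS included RIPK2 (0.977) over all libraries, and HIST2H2BE and CARD6 (each 0.993) after subtracting line means.

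Of 9 other class II chain genes, HLA-DRB5, the near copy of HLA-DRB1, was the only one tested. It had 7.15, 10.2 and 22.6 RPKM in MDA-MB-231, 2.02, 7.40 and 8.54 in the libraries labelled MDA-MB-453 and 0 in MDA-MB-436. It rose with both interventions averaged (0.85 ± 0.54, adjusted p = 0.0378, limma), but not without the MDA-MB-453-labelled libraries (0.50 ± 0.68, adjusted p = 0.357). The DQ genes stayed low, with HLA-DQB1 at 0.480 RPKM at most (shEZH2-labelled MDA-MB-231).

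Of 16 genes of the class II promoter and of the interferon gamma route to CIITA, 2 rose with both interventions averaged and 0 fell, where 12.2% of all genes were called higher. Their median was 0.06 against 0.05 over all genes. They were IFNGR2 (0.50 ± 0.26, adjusted p = 0.0164) and IFNGR1 (0.49 ± 0.30, adjusted p = 0.0331), the chains of the interferon gamma receptor. IRF1, which carries the signal to the CIITA promoter, had 0.35 ± 0.29 and did not pass (adjusted p = 0.0839). All 16 genes reached 1 RPKM, and in MDA-MB-436 too their summed level was 230 to 253 RPKM, beside 205 to 228 in MDA-MB-231. By gene the lines differed, with 5 of the 16 called higher in MDA-MB-436 than in MDA-MB-231 and 3 lower. Of all genes 34.8% were called higher and 28.6% lower. The 3 lower ones were NFYA (-1.13 ± 0.32), CREB1 (-0.67 ± 0.34) and IRF1 (-0.53 ± 0.33, adjusted p = 0.00856, limma).

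Among 13 tested genes of endosomal processing 5 rose and 0 fell, where 12.2% of all genes were called higher, and the median was 0.43. CSTB, an inhibitor of cathepsins, rose by 0.84 ± 0.39 (adjusted p = 0.00996), the protease LGMN by 0.59 ± 0.27 (adjusted p = 0.0101), cathepsin B (CTSB) by 0.56 ± 0.26 (adjusted p = 0.0104) and cathepsin D (CTSD) by 0.76 ± 0.42 (adjusted p = 0.0215). The CTSS estimate of 1.47 was larger than each of these.

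Among 6 tested genes of surface turnover, CD74 partners and co-stimulation 2 rose, where 12.2% of all genes were called higher, and the median was 0.26. ICAM1, an adhesion molecule of the T cell contact, rose by 1.31 ± 0.39 (adjusted p = 0.00114) and CXCR4, a receptor that pairs with CD74, by 0.93 ± 0.31 (adjusted p = 0.002). CD40 (0.38 ± 0.34, adjusted p = 0.118) and CD274, which encodes PD-L1 (0.15 ± 0.32, adjusted p = 0.51), did not pass. MIF, the ligand of CD74, is listed at 0 in all 9 libraries. Whether this reflects absence of the transcript or the alignment and counting was not tested. CD80 and CD86, the ligands of CD28, did not pass the filter. With the MDA-MB-453-labelled libraries left out, 0 genes of these 4 lists were called higher or lower by limma, where 145 of 12965 genes were. ICAM1 then had 1.17 ± 0.52 (adjusted p = 0.0602) and CXCR4 0.98 ± 0.40 (adjusted p = 0.0521).

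Markers of leukocytes, which carry class II themselves, were low. Of 12 markers, 2 reached 1 RPKM in any library, CD14 (up to 12.5) and ITGAX (up to 1.82). PTPRC, the pan-leukocyte antigen CD45, was at most 0.203, in the shEZH2-labelled MDA-MB-231 library, and TYROBP was at 0 in all 9. Their summed level was 6.58 to 13.7 RPKM in MDA-MB-231, 6.04 to 9.18 in MDA-MB-436 and 4.38 to 9.63 in the libraries labelled MDA-MB-453. By condition it was 4.38 to 6.58 in the controls, 7.02 to 8.28 with the GSK343 label and 9.18 to 13.7 with the shEZH2 label. CD14 made up most of this sum in each library. PTPRC and CSF1R were highest in MDA-MB-231 and lowest in MDA-MB-436 in each condition, the order of the class II genes. CSF1R had 0.498 to 0.786 RPKM in MDA-MB-231 and 0.0463 to 0.207 in MDA-MB-436. ITGAX ran the other way, with 0 in MDA-MB-231 and 0.202 to 1.82 in MDA-MB-436. CD14 was called higher under the shEZH2 label (0.73 ± 0.42, adjusted p = 0.0332), but not without the MDA-MB-453-labelled libraries (0.61 ± 0.51, adjusted p = 0.209). The part of these markers in the class II results was not tested. In these bulk libraries more cells with class II transcripts and more transcripts per cell cannot be told apart.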

How the data were processed

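RPKM values were deposited by the authors as a table of 58037 genes and 9 columns. Per the submitters' processing notes, STAR, HTSeq and GRCh38 were used; versions and annotation are not stated there. Reads were recovered as RPKM times exon length (GENCODE 29) and were whole within 0.05. For HLA-DRB1 and CIITA, listed there under another version, the shortest length giving whole reads was used (1304 and 14503 bases). Columns were assigned by header. Genes with at least 1 RPKM in at least 3 libraries were fitted as log2(RPKM + 1) with limma 3.58.1 (R 4.3.3, trend, two-sided, Benjamini-Hochberg, threshold 0.05), with condition and line as terms (4 residual degrees of freedom). Lines serve as replicates, paired by line. The F-test of the response by line instead had a control mean and a pooled intervention mean per line (3 residual degrees of freedom). Deviations from condition means correlated across genes at 0.358 to 0.953 within lines and -0.914 to 0.090 between lines. These deviations cancel over the 3 lines of a condition, so positive correlations within lines bring negative ones between lines. The ranges are not independent of each other. Errors after ± are half-widths of 95% intervals. Read ratios carry exact binomial intervals. Code was tested on simulated data. Recovery of changes by condition and of differences between lines depended on the noise assumed, and the noise model was replaced after a first one had recovered fewer, so no power is claimed. The genes, the lists and the naming rule (all 9 genes, up to 4 per list by smallest p, the genes most alike by r) were chosen with earlier results of these data known. CTSS was left out of the mean used for likeness, a choice made after its pattern was seen. Alternatives were other pseudocounts, filters, scalings, variance models, no block, only the libraries compared, and leaving out libraries or lines. Some genes that the naming rule selects are not reported here.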

Additional observations from a re-analysis of the deposited data

How the results depend on the processing

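The count of class II genes called changed as follows. Under the GSK343 label it was 1, and 0 with no filter on low values, 0 with no replicate block for the line, 2 with only the libraries compared and 1 to 3 when libraries or lines were left out. Under the shEZH2 label it was 2, and 1 with a pseudocount of 0.1, of 0.5 or with median-ratio rescaling, 0 with no filter, 0 with no replicate block, 7 with only the libraries compared, and 1 to 8 with libraries or lines left out. For both interventions it was 2, and 1 with no filter, 0 with no replicate block and 1 to 8 with libraries or lines left out. For the response by line it was 0, and 0 to 6 with libraries or lines left out. For MDA-MB-436 against MDA-MB-231 it was 7, and 3 with a mean RPKM of at least 5, which left 4 of the genes to test. The MDA-MB-453-labelled libraries against MDA-MB-231 gave 6, and 3 with a pseudocount of 0.1, 0 with no filter, 3 with that mean, 1 with no condition block and 1 to 7 with libraries or lines left out. Against MDA-MB-436 they gave 7, and 3 with that mean. With no filter 36845 genes were tested, and 14, 15 and 186 of all genes were called for GSK343, shEZH2 and both. CTSS kept its sign in all alternatives for the interventions (1.27 to 1.69, 1.34 to 1.61 and 1.35 to 1.63 for GSK343, shEZH2 and both). It did not pass with no replicate block (adjusted p = 0.176, 0.202 and 0.0658, limma), nor for the single interventions with no filter (0.0651 and 0.0624). The causes were not tested. On the TPM scale the GSK343 against shEZH2 differences of HLA-DMA (-0.0333) and CTSS (-0.0295) changed sign. Signs also changed with libraries or lines left out. The ranges were -0.0037 to 0.7104 for CD74 (GSK343 against control), -0.5808 to 0.0366 for HLA-DRA, -0.2311 to 0.1695 for HLA-DMA and -0.1780 to 0.1934 for CTSS (GSK343 against shEZH2). For CTSS in the MDA-MB-453-labelled libraries they were -0.0198 to 0.3383 against MDA-MB-231 and -0.2447 to 0.0550 against MDA-MB-436. None of these passed the threshold with all libraries.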
